A study of Mus musculus with 6 samples.

Results

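The m6A reader proteins are the proteins that recognise N6-methyladenosine (m6A) in RNA, and the expression of their genes was examined here in a mouse neural stem cell (NSC) line after hypoxia and reoxygenation (H/R). The genes were chosen by name: Ythdf1, Ythdf2, Ythdf3, Ythdc1, Ythdc2, Igf2bp1, Igf2bp2, Igf2bp3, Hnrnpa2b1 and Hnrnpc, 10 of the 14665 genes in the deposited count table. RNA was sequenced from C17.2 cells of wild-type genotype in 3 H/R libraries and 3 control libraries. The H/R cells spent 12 h at 5% oxygen and then 48 h in standard oxygen, and the control cells, of the same line and genotype, stayed in standard oxygen. C17.2 is a clonal line from mouse cerebellum that was immortalized with a v-myc transgene and is grown in medium with serum. No source says that replicates of a group were cultured separately, and the p-values then cover no more than the spread between these 6 libraries, which may be technical.

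m6A is written onto adenosines of nascent RNA by a methyltransferase complex around METTL3 and METTL14 and can be removed by the demethylases FTO and ALKBH5. Its effect depends on the readers. Proteins with a YTH domain hold the methylated base directly: YTHDF1, YTHDF2 and YTHDF3 act in the cytoplasm on translation and decay, YTHDC1 acts in the nucleus on splicing and export, and YTHDC2 is an RNA helicase known mainly from germ cells. The IGF2BP proteins bind and stabilise target mRNAs and are abundant in embryonic and tumour cells. HNRNPC and HNRNPA2B1 are abundant nuclear proteins of pre-mRNA processing that are described as indirect readers, because m6A opens the RNA structure around their binding sites. In neural stem and progenitor cells, m6A and its readers are known to take part in the balance between self-renewal and differentiation.

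Gene counts summed to 15639751 to 16830389 per H/R library and to 7267809 to 8371882 per control library. Expression is given as CPM, the share of a library's gene counts on a common scale, scaled by TMM factors, which were 1.07 to 1.08 in the H/R libraries and 0.92 to 0.938 in the controls. Genes were compared with the two-sided quasi-likelihood test of edgeR, p-values were adjusted after Benjamini and Hochberg over the 11104 genes that passed the filter on low counts, and a gene was called at an adjusted p under 0.05. Of all tested genes, 18.8% were called higher and 19% lower in H/R cells. Of 13 NSC markers listed, 7 were tested (Nes, Sox2, Sox9, Vim, Msi1, Msi2 and Notch1). Of these, Nes and Notch1 were higher and Sox9 and Msi2 lower in H/R cells. Another 5 were at 0 or not listed, among them Sox1 and Pax6. The groups overlapped for Sox9, at 1.76, 1.49 and 2.12 CPM in H/R libraries and 1.29, 8.57 and 15 CPM in control libraries. Nes averaged 331 ± 19.2 CPM in H/R cells and 196 ± 16.3 CPM in control cells, and Msi2 34.9 ± 5.3 CPM in H/R cells and 52.2 ± 1.8 CPM in control cells (SD, n = 3 each). The 7 mesenchymal markers summed to 5630 to 7010 CPM in H/R cells and 5980 to 8620 CPM in control cells, carried by the collagens Col1a1, Col1a2 and Col3a1. Markers of microglia and macrophages summed to at most 2.36 CPM in H/R libraries and 3.74 CPM in control libraries, and those of endothelium to at most 1.07 CPM in H/R libraries and 2.99 CPM in control libraries. The 11 neuronal markers summed to 34.4 to 38.9 CPM in H/R libraries and 74.5 to 82.9 CPM in control libraries, nearly all of it Map2, and Tubb3 was at no more than 0.44 CPM in any library. Astrocyte markers summed to 218 to 238 CPM in H/R libraries and 220 to 291 CPM in control libraries, and those of the oligodendrocyte lineage to 85.2 to 97 CPM in H/R libraries and 117 to 150 CPM in control libraries. The part of any such difference in the results on the readers was not tested. In such bulk samples fewer cells of a type and less RNA per cell cannot be told apart.

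All 10 reader genes passed the filter. Hnrnpc and Igf2bp2 were lower in H/R cells, no reader gene was called higher by edgeR, and 8 were not called. DESeq2 called the same 2 genes. An unadjusted p under 0.05 was reached by 3 genes, Hnrnpc, Igf2bp2 and Ythdc1, all with lower means in H/R cells. The share called lower, 20% of the 10, was close to the 19% of all tested genes. By the thresholds that the study applied, a fold change of 2 or more with a p under 0.05 before adjustment, none of the 10 was called, beside 11.2% of all tested genes. The estimated differences of the reader genes were small as well. Their median absolute log2 fold change was 0.115, against 0.36 over all tested genes. Summed over the 10 genes, the readers made up 968 to 1010 CPM in H/R libraries and 1140 to 1210 CPM in control libraries. This separation of the sums rested on the scaling, since without scaling factors they overlapped at 1050 to 1080 CPM in H/R libraries and 1060 to 1110 CPM in control libraries.

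**Figure D1:**
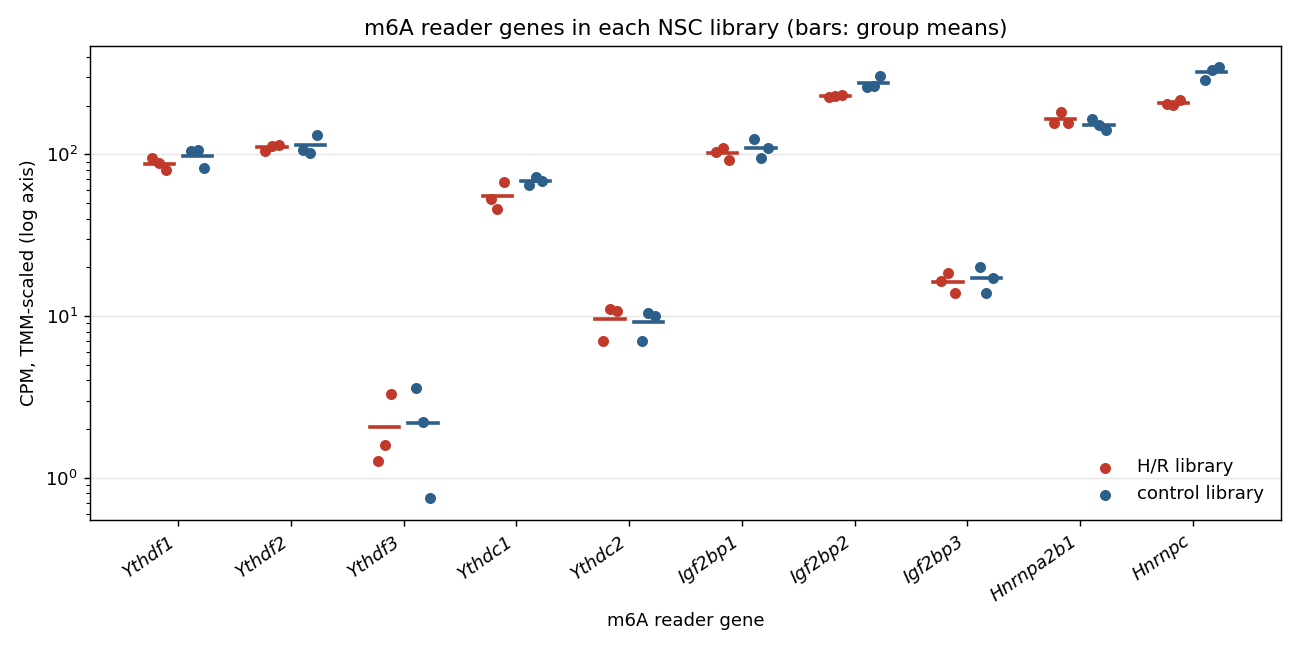
TMM-scaled CPM (log axis) of the 10 m6A reader genes in each library, with H/R libraries in red on the left of each pair, control libraries in blue on the right, and bars at the group means. The 3 H/R libraries lie below all 3 control libraries for Igf2bp2 and Hnrnpc, and the groups overlap for the other 8 genes.

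Hnrnpc encodes the nuclear protein that packages nascent transcripts and binds runs of uridine in them. The gene lies on chr14:52073377-52104028 (mm10, minus strand). Hnrnpc had 205, 202 and 216 CPM in H/R replicates 1, 2 and 3, against 287, 332 and 345 CPM in control replicates 1, 2 and 3. Every H/R library lay below every control library. The mean was 208 ± 7.05 CPM in H/R cells and 321 ± 30.2 CPM in control cells (SD, n = 3 each), and the log2 fold change was -0.63 (SE 0.09, 95% interval -0.83 to -0.43), or a fold of 0.647 (0.564 to 0.742), with an adjusted p of 1.46e-04 in edgeR. These values rest on 3736, 3405 and 3667 counts in H/R libraries and 2228, 2557 and 2302 counts in control libraries. Its absolute log2 fold change stood at percentile 72.2 among all tested genes. The call held when any 1 library was left out, with log2 fold changes of -0.70 to -0.58.

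Igf2bp2 encodes an mRNA-binding protein that shapes mRNA stability and translation in neural precursors of the fetal brain. The gene lies on chr16:22059009-22163299 (mm10, minus strand). Igf2bp2 had 227, 231 and 234 CPM in H/R replicates 1, 2 and 3, against 261, 265 and 304 CPM in control replicates 1, 2 and 3. The groups did not overlap, and the H/R libraries lay close together. The mean was 230 ± 3.45 CPM in H/R cells and 277 ± 23.4 CPM in control cells (SD, n = 3 each). The log2 fold change was -0.26 (SE 0.09, 95% interval -0.45 to -0.07), or a fold of 0.833 (0.73 to 0.95), with an adjusted p of 0.0304. This call was close to the threshold. It was lost without H/R replicate 1 (adjusted p 0.11), H/R replicate 2 (0.101), H/R replicate 3 (0.0633) or control replicate 3 (0.0827), while the log2 fold change stayed between -0.31 and -0.20. Non-overlapping groups were common in this comparison, at 49.7% of all tested genes, and 2 of the 10 readers had them.

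The window before the start of both genes is shown because they are the members that were called lower with TMM scaling. Of the 10 reader genes, 7 matched the promoter sequences of RefSeq (GRCm38.p6), and the 250 bases before the annotated start are printed 5′ to 3′ on the strand of the gene. Capitals mark CCAAT or its reverse complement ATTGG in Hnrnpc, and GGGCGG or its reverse complement CCGCCC, a GC box, in Igf2bp2. Both motifs were looked for after the sequences had been seen.
Hnrnpc, chr14:52104022-52104271, minus strand: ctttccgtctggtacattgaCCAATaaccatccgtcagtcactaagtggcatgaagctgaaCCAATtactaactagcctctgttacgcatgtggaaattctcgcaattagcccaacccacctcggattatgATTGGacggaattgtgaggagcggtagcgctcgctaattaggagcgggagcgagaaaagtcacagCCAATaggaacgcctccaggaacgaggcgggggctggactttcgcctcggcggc
Igf2bp2, chr16:22163300-22163549, minus strand: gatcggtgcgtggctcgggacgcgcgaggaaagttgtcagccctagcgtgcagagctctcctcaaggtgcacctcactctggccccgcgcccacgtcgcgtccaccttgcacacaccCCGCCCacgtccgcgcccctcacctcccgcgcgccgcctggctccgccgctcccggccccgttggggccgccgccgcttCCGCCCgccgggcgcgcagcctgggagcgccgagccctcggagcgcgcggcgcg

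The windows of Hnrnpc and Igf2bp2 differed in make-up. That of Hnrnpc held 4 CCAAT motifs, whose bases nearest to the start lay 226, 185, 115 and 50 bases before it, and no GC box. That of Igf2bp2 held no CCAAT motif and 2 GC boxes, and 77.2% of its bases were G or C, against 52.8% for Hnrnpc. At least 1 CCAAT on either strand occurred in 33.8% of all 32851 windows of this length, and at least 4 in 0.84%. At least 1 GC box occurred in 32.7% and at least 2 in 16.7%. These windows had a median of 52.4% G or C and were not matched to the members in make-up. Since the motifs were picked after the sequences had been seen, these shares are no test. Among the members that were not called, the windows of Ythdf1 and Igf2bp3 and both windows of Hnrnpa2b1 held 1 CCAAT each, and those of Ythdf2 and Ythdc1 held none. GC boxes numbered 3 in the window of Ythdf1, 1 in that of Ythdf2 and 4 in that of Ythdc1, and none was found for Igf2bp3 and Hnrnpa2b1. A match describes letters only, and binding by a factor was not measured.

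The other indirect reader did not follow Hnrnpc. Hnrnpa2b1, whose protein also sorts and processes microRNA precursors, had 156, 184 and 157 CPM in H/R libraries and 165, 152 and 141 CPM in control libraries. The libraries overlapped, and the log2 fold change of Hnrnpa2b1 was 0.12 (95% interval -0.10 to 0.34, adjusted p 0.389). The ratio of Hnrnpc to Hnrnpa2b1 counts within a library, which needs no scaling between libraries, was 1.32, 1.10 and 1.38 in H/R libraries and 1.74, 2.19 and 2.44 in control libraries. The 2 groups of ratios did not overlap. These ratios were computed after the differences had been seen and are given without a test.

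Within a library, each reader gene can be set against the 9 others, which gives 45 ratios of raw counts. Of these, 8 did not overlap between H/R and control libraries, and 6 of the 8 involved Hnrnpc. The share of 8 in 45 lay below that of all gene pairs, since 49% of the ratios between the 10949 tested genes with no count of 0 did not overlap. The ratio of Hnrnpc to Igf2bp2 was 0.905, 0.878 and 0.923 in H/R libraries and 1.10, 1.25 and 1.13 in control libraries. Hnrnpc had fewer counts than Igf2bp2 in every H/R library and more in every control library. The other 2 ratios were those of Igf2bp2 to Hnrnpa2b1, at 1.25 to 1.49 in H/R libraries and 1.59 to 2.15 in control libraries, and of Igf2bp2 to Ythdf2, at 2.03 to 2.17 in H/R libraries and 2.30 to 2.60 in control libraries. The ratio of Igf2bp2 to Igf2bp1, a gene of the same family, overlapped at 2.12 to 2.52 in H/R libraries and 2.10 to 2.78 in control libraries.

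**Figure D2:**
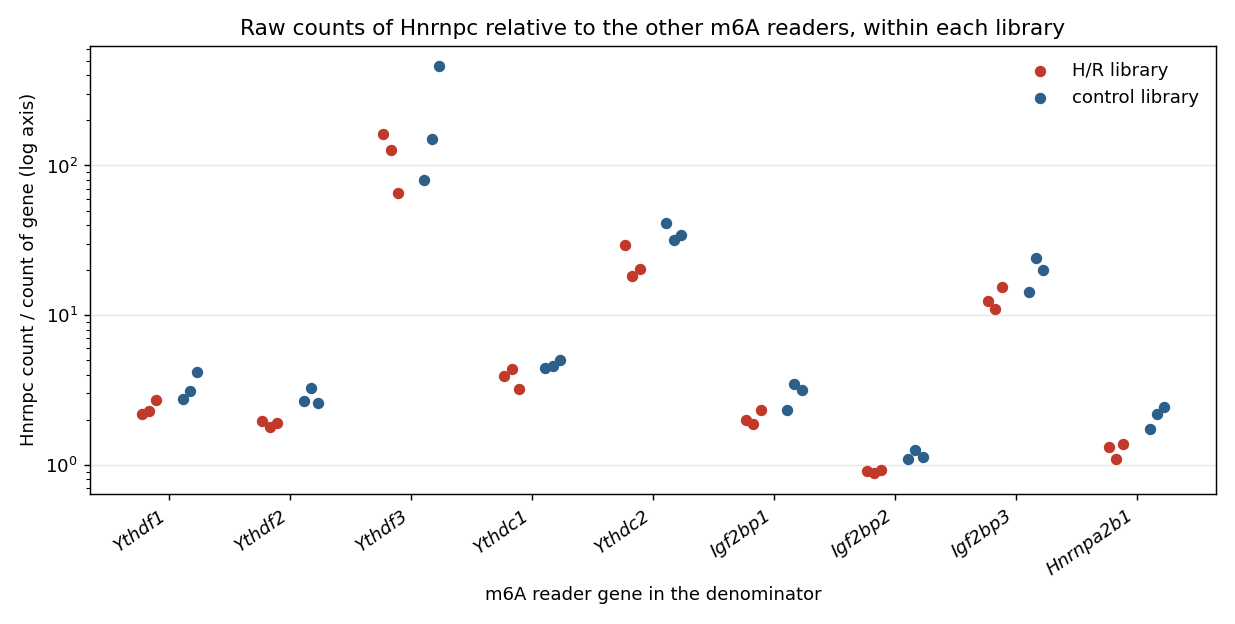
Raw count of Hnrnpc divided by the raw count of each other m6A reader gene in the same library (log axis), with H/R libraries in red on the left and control libraries in blue on the right. The H/R ratios lie below all control ratios for 6 of the 9 genes, and the groups overlap for Ythdf3, Igf2bp1 and Igf2bp3.

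None of the cytoplasmic YTHDF genes was called. Ythdf1, whose protein promotes translation of bound mRNAs, had 94.5, 88.8 and 79.9 CPM in H/R libraries and 105, 107 and 82.8 CPM in control libraries, with a log2 fold change of -0.16 (95% interval -0.42 to 0.09, adjusted p 0.299). Ythdf2, whose protein recruits the CCR4-NOT deadenylase and so starts the decay of bound mRNAs, had 105, 113 and 114 CPM in H/R libraries and 107, 102 and 132 CPM in control libraries, with a log2 fold change of -0.04 (-0.28 to 0.20, adjusted p 0.809). For both genes the libraries of the groups overlapped. The interval of Ythdf2 spans a fold of 0.823 to 1.15, and that of Ythdf1 a fold of 0.747 to 1.07. The H/R libraries spread less than the control libraries for both genes, with an SD of 7.37 CPM in H/R cells and 13.4 CPM in control cells for Ythdf1, and of 5.07 CPM in H/R cells and 16.2 CPM in control cells for Ythdf2.

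Ythdf3, the third of the family, was at a far lower count. Its counts were 23, 27 and 56 in H/R libraries and 28, 17 and 5 in control libraries, or 1.26, 1.60 and 3.30 CPM in H/R cells and 3.61, 2.21 and 0.748 CPM in control cells. The groups overlapped over their whole range. The log2 fold change of -0.11 had a 95% interval of -1.44 to 1.23 (adjusted p 0.908), or a fold of 0.368 to 2.35. These data are therefore compatible with changes in either direction within these bounds. The lncRNA table lists a non-coding transcript of the same locus, NR_027375, which shares exons with Ythdf3, with 56, 89 and 53 counts in H/R libraries and 33, 25 and 32 in control libraries. These counts were higher than those of the gene in 5 of the 6 libraries. How the authors' counting divided reads between both tables is not stated, and its part in the low count of Ythdf3 was not tested. A low count was also found for Cnot1, the scaffold of the CCR4-NOT complex. Cnot1 was at 0.884 ± 0.055 CPM in H/R cells and 0.961 ± 0.69 CPM in control cells. What such low counts say about the RNA of either gene in the cells was not tested.

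Of the YTHDC genes, Ythdc1 leaned lower without passing the adjusted threshold. It had 52.6, 46.2 and 67.1 CPM in H/R libraries and 64.6, 72.9 and 68.7 CPM in control libraries. H/R replicate 3 lay within the range of the controls, and the other 2 H/R libraries lay below it. The log2 fold change of Ythdc1 was -0.31 (SE 0.14, 95% interval -0.61 to -0.01) with an unadjusted p of 0.0417 and an adjusted p of 0.0931, and with 1 library left out it ran from -0.47 to -0.20. Of these 6 refits, 1 called Ythdc1, that without H/R replicate 3 (adjusted p 0.0164), while without H/R replicate 2 the adjusted p was 0.342. Exons of Ythdc1 overlap those of the non-coding gene Gm43055 on the same strand, and how reads there were counted is not stated. Ythdc2, the helicase, had 6.98, 11.1 and 10.7 CPM in H/R libraries and 6.96, 10.5 and 10.0 CPM in control libraries. The ranges of the groups nearly coincided, and the log2 fold change of Ythdc2 was 0.06 (-0.52 to 0.65, adjusted p 0.875).

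The other IGF2BP genes were not called. Igf2bp1, which encodes the zipcode-binding protein of β-actin mRNA, had 103, 109 and 92.9 CPM in H/R libraries and 124, 95.5 and 109 CPM in control libraries, with a log2 fold change of -0.11 (-0.36 to 0.13, adjusted p 0.472). Igf2bp3, known as an oncofetal protein, had 16.4, 18.4 and 13.9 CPM in H/R libraries and 20.2, 13.9 and 17.2 CPM in control libraries, with a log2 fold change of -0.08 (-0.51 to 0.35, adjusted p 0.794). For both genes the libraries of the groups overlapped. Exons of Igf2bp3 overlap those of Malsu1 on the opposite strand, and since the strand setting of the counting is not stated, their reads cannot be told apart there. Exons of Igf2bp1 likewise overlap the antisense gene Gm29202, and on the same strand the microRNA gene Mir3063.

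**Figure D3:**
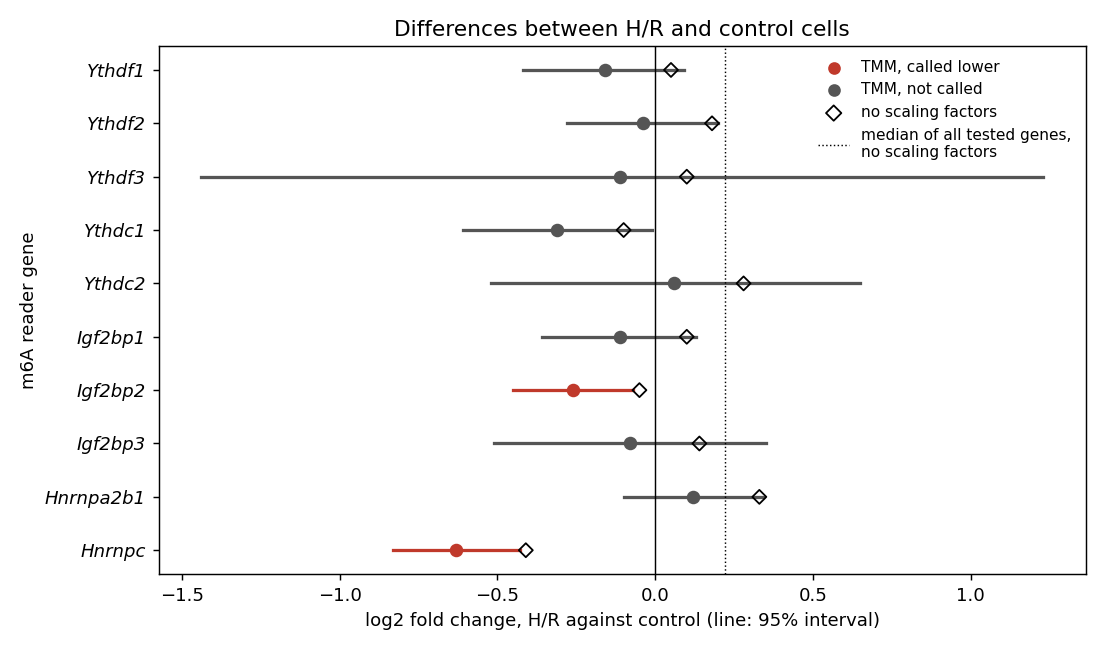
Log2 fold change of each m6A reader gene in H/R against control cells, as dots with 95% intervals under TMM scaling (red: called lower) and as open diamonds without scaling factors. The dotted line at 0.22 is the median of all tested genes without scaling factors. The interval of Hnrnpc lies farthest from 0 and that of Ythdf3 is the widest.

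The direction of the small differences depended on the scaling. When library totals alone were used, the median over all tested genes stood at 0.22 on the log2 scale, against 0.01 with TMM, and 74.4% of all calls were higher in H/R cells, against 49.7% with TMM. Hnrnpc remained lower at -0.41 (adjusted p 0.00253). Igf2bp2 was then at -0.05 (adjusted p 0.671) and no longer called, and Hnrnpa2b1 was called higher at 0.33 (adjusted p 0.018). Ythdf1, Ythdf2, Ythdf3, Igf2bp1 and Igf2bp3 changed sign, to values of 0.05 to 0.18, and passed the threshold under neither scaling.

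Levels of different genes were compared as CPM per kb of merged exons (GENCODE vM21). In H/R cells the order ran from Hnrnpc (48.1 ± 1.63 CPM per kb) over Igf2bp2 (31.1 ± 0.466), Ythdf1 (26.4 ± 2.22), Hnrnpa2b1 (25.2 ± 2.45), Ythdf2 (24.2 ± 1.11) and Igf2bp1 (10.5 ± 0.823) to Ythdc1 (4.05 ± 0.786), Igf2bp3 (1.99 ± 0.271), Ythdc2 (1.08 ± 0.255) and Ythdf3 (0.383 ± 0.203; SD, n = 3). In control cells Hnrnpc was at 74.3 ± 6.99 and Igf2bp2 at 37.4 ± 3.16 CPM per kb, and Ythdf2 (24.9 ± 3.54) stood before Hnrnpa2b1 (23.2 ± 1.77). Neighbours in these orders whose libraries overlapped were Ythdf1, Hnrnpa2b1 and Ythdf2, so their order is not fixed by these data. The other neighbours did not overlap in either group at this length. The order depended in part on the length in the denominator. For Ythdc1 this was 13651 bp over all annotated exons and 6313 bp for the longest transcript. The longest transcript was not always an mRNA. Its length for Ythdc1 equals that of ENSMUST00000151489, and its 4952 bp for Igf2bp2 equal that of ENSMUST00000129913, both listed as lncRNAs. Per kb of the longest transcript, Hnrnpa2b1 stood next to Igf2bp2 and overlapped it in H/R libraries (42.8 to 50.6 and 45.8 to 47.2 CPM per kb), and Ythdc1 overlapped Igf2bp1 in control libraries (10.2 to 11.5 and 11.4 to 14.8 CPM per kb). Hnrnpc was the highest and Igf2bp3, Ythdc2 and Ythdf3 were the lowest of the 10 with either length.

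Within each family 1 or 2 genes carried most of the RNA. Igf2bp2 made up 69.8% to 73.6% of the CPM per kb of the 3 IGF2BP genes in H/R libraries and 69.7% to 75.6% in control libraries, and Igf2bp3 made up 3.98% to 5.04% in H/R libraries and 3.59% to 4.90% in control libraries. The sum over the IGF2BP genes was 42.9 to 44.6 CPM per kb in H/R libraries and 47.4 to 54.4 CPM per kb in control libraries. Ythdf1 and Ythdf2 shared the YTHDF sum, with Ythdf1 at 48.6% to 55.2% in H/R libraries and 46.2% to 58.6% in control libraries, and Ythdf3 at 0.457% to 1.24% in H/R libraries and 0.258% to 1.21% in control libraries. The YTHDF sum was 49.6 to 51.9 CPM per kb in H/R libraries and 54.0 to 55.8 CPM per kb in control libraries. Neither sum overlapped between the groups with TMM scaling, and neither was tested. Without scaling factors the YTHDF sum turned direction, at 53.1 to 55.8 CPM per kb in H/R libraries and 49.7 to 51.7 CPM per kb in control libraries, and the IGF2BP sums overlapped at 46.0 to 48.0 CPM per kb in H/R libraries and 44.5 to 50.0 CPM per kb in control libraries. Ythdc1 made up 73.0% to 83.0% of the YTHDC sum in H/R libraries and 81.7% to 85.8% in control libraries.

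Around the readers, 63 further genes in 6 lists were listed by function, of which 55 were tested. Of these, 6 were higher and 13 lower in H/R cells, or 10.9% and 23.6%, beside 18.8% and 19% of all tested genes. No list was tested as a set, and their medians of -0.19 to 0.12 stood beside a median of 0.01 over all tested genes and -0.11 over the readers. Without scaling factors 19 of the 55 were called higher and 6 lower, beside 3704 and 1272 of all 11104 tested genes.

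Among the writers and erasers of m6A, 2 of 10 were called, both lower. 1110037F02Rik (Virma), which encodes the largest subunit of the writer complex, had a mean of 110 ± 6.17 CPM in H/R cells and 141 ± 7.08 CPM in control cells (SD, n = 3 each; log2 fold change -0.35, adjusted p 0.00983). Fto, which encodes a demethylase, had 127 ± 5.36 CPM in H/R cells and 162 ± 14.7 CPM in control cells (-0.34, adjusted p 0.0136). Mettl3 and Mettl14, the catalytic core, were not called, with log2 fold changes of -0.28 (adjusted p 0.486) and -0.13 (adjusted p 0.571). Of the 9 other RNA-binding proteins proposed to bind m6A, G3bp2, a stress granule protein, was higher (0.32, adjusted p 0.0105). Lower were Fxr1, a relative of the fragile X protein (-0.56, adjusted p 0.00209), Elavl1, which encodes the mRNA-stabilising protein HuR (-0.33, adjusted p 0.00949), and Lrpprc, which binds mitochondrial mRNAs (-0.39, adjusted p 0.0251).

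The CCR4-NOT complex, through which YTHDF2 shortens poly(A) tails, had 2 of 10 genes called, both higher. Cnot6, 1 of its deadenylases, averaged 146 ± 6.46 CPM in H/R cells and 107 ± 8.06 CPM in control cells (log2 fold change 0.44, adjusted p 0.00283). Rqcd1 (Cnot9), a binding module of the complex, averaged 86.7 ± 4.72 CPM in H/R cells and 62.9 ± 5.54 CPM in control cells (0.46, adjusted p 0.00448). Of 13 tested proteins reported to act with readers, 1 was higher and 5 were lower. Upf1, the helicase of nonsense-mediated decay that also acts with YTHDF2, averaged 135 ± 6.98 CPM in H/R cells and 84.2 ± 4.32 CPM in control cells (0.68, adjusted p 1.20e-04). The lowest adjusted p among those that were lower belonged to Pabpc1, which encodes the cytoplasmic poly(A)-binding protein (-0.54, adjusted p 2.49e-04), Eif3a, a subunit of initiation factor eIF3 (-0.49, adjusted p 3.30e-04), and Cpsf6, a cleavage and polyadenylation factor (-0.33, adjusted p 0.00483).

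Of 7 tested mRNAs known to be bound by IGF2BP proteins or linked to them through Lin28 and Hmga2, 2 were higher and 1 was lower. Cd44 averaged 359 ± 3.68 CPM in H/R cells and 214 ± 24.6 CPM in control cells (log2 fold change 0.75, adjusted p 4.94e-05), and Actb averaged 5330 ± 456 CPM in H/R cells and 4190 ± 390 CPM in control cells (0.35, adjusted p 0.00739). Myc, whose mRNA IGF2BP proteins are known to stabilise, had 15.5, 14.9 and 14.3 CPM in H/R libraries and 35.2, 40.5 and 44.5 CPM in control libraries (-1.43, adjusted p 1.20e-05). The line carries a v-myc transgene, and whether its reads were counted under Myc was not tested. Hmga2, which encodes a chromatin protein known to raise Igf2bp2 expression, was not called (0.30, adjusted p 0.42). Among the 6 tested relatives of both hnRNP genes, Hnrnpa3 (-0.67, adjusted p 0.00569) and Raly (-0.52, adjusted p 0.0496) were lower. Raly encodes the nearest relative of HNRNPC, and it averaged 14.9 ± 0.921 CPM in H/R cells and 21.4 ± 5.02 CPM in control cells. Hnrnpa1 was not analysed here.

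**Figure D4:**
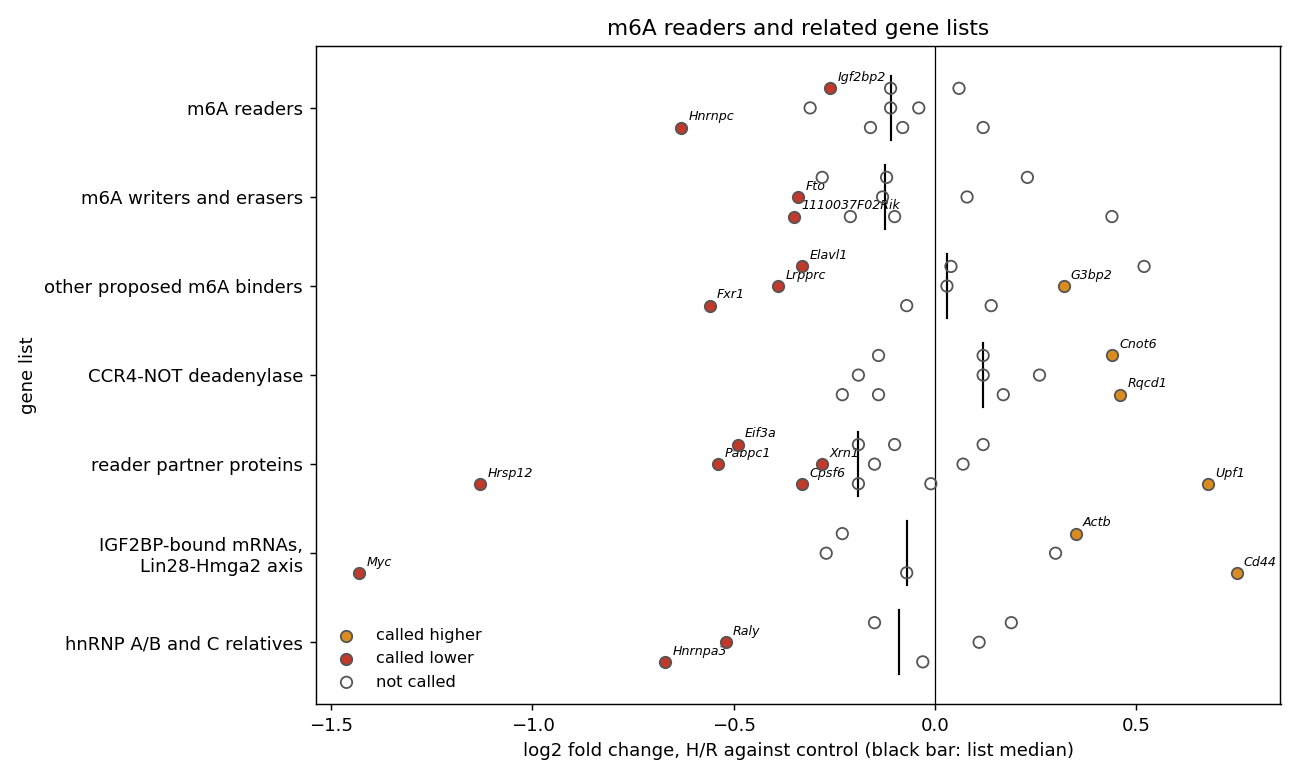
Log2 fold change in H/R against control cells of each tested gene in the list of m6A readers and in the 6 lists around it, with filled points for genes called higher (orange) or lower (red), open points for genes that were not called, and a black bar at each list's median. Among the readers, Hnrnpc and Igf2bp2 are filled, and the list medians run from -0.19 to 0.12.

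The lncRNA table lists transcripts that overlap these genes. It held 19 transcripts at 7 of the 10 loci, of which 16 shared exons with the reader gene on the same strand and 3 were antisense. Reads of a transcript that shares exons with its host gene cannot be told apart from those of the gene. Of the 13 transcripts tested none was called by edgeR, beside 4.93% of the 6779 transcripts tested in all, while 3 had an unadjusted p under 0.05, and DESeq2 called 1. All 3 had lower values in H/R cells without overlap. Over all tested transcripts 17% had an unadjusted p under 0.05 and 24% did not overlap, so 3 of 13 was near the share of the whole table. ENSMUST00000151087, on chr16:22083942-22137209 within Igf2bp2, had 52, 39 and 40 counts in H/R libraries and 69, 40 and 40 counts in control libraries, or 43.3, 35.1 and 34.6 CPM in H/R libraries and 110, 64.9 and 79.7 CPM in control libraries. Its log2 fold change was -1.17 (SE 0.35, 95% interval -1.91 to -0.43, adjusted p 0.0653), and it was the transcript that DESeq2 called, at -1.19 (adjusted p 0.0437). ENSMUST00000127696, also within Igf2bp2, was at 56.7 ± 9.34 CPM in H/R cells and 102 ± 38.5 CPM in control cells (-0.83, adjusted p 0.182). ENSMUST00000151489, within Ythdc1, was at 135 ± 24 CPM in H/R cells and 200 ± 25.9 CPM in control cells (-0.57, adjusted p 0.209). All 3 transcripts lie at loci whose gene had a lower mean in H/R cells, but shared exons make them no independent measurement.

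The circRNA table, which counts reads across back-splice junctions, held 1 circRNA from the reader loci. It came from exons of Igf2bp3 (chr6:49117152-49134898) with a predicted length of 398 nt, and had 2 reads in H/R replicate 2 and 0 in each of the other 5 libraries. At totals of 2938 to 3335 junction reads per H/R library and 1386 to 1846 per control library, no difference could be detected for it.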

How the data were processed

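Total RNA of C17.2 cells was depleted of ribosomal RNA and sequenced from both ends. Per the labels and the methods of the study, the authors used cutadapt 1.9.3 for trimming, HISAT2 2.0.4 for alignment (mm10), HTSeq 0.9.1 for gene counts and edgeR 3.16.5 for their comparison. Junction reads of circRNAs came from STAR 2.5.1b and DCC. The tables deposited by the authors hold raw counts per gene, lncRNA transcript and circRNA. The strand setting, the annotation release, the treatment of reads with several positions and the lncRNA counting tool are not given in the sources used here. Another 18 columns, which repeat the samples as normalized log values, were left aside.

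The gene and lncRNA tables were each fitted whole in R 4.3.3 with edgeR 4.0.16 (filterByExpr, TMM, two-sided quasi-likelihood test between H/R and control without covariates, Benjamini-Hochberg adjustment). With 3 libraries against 3, an exact permutation test of a single gene cannot go below 0.1. The coefficient of variation between replicates was 0.144 for genes and 0.405 for lncRNAs. No library duplicated another: chi-square values of replicate pairs, divided by their degrees of freedom, were 8.67 to 28.7. Counts of PCR-amplified reads are not independent molecules. Alternatives were DESeq2 1.42.0, RLE factors, no scaling factors, no filter or 1 CPM in 3 libraries, a replicate block, thinned H/R libraries, each library left out, other thresholds and another gene length, and ratios within libraries and unscaled sums were added after the data were seen. The script was tested on simulated data. Of simulated 1.5-fold and 4-fold changes it recovered 43.9% and 93% for genes, and 0% and 50% for lncRNA transcripts. The simulations gave 144 calls for genes and 40 for lncRNA transcripts, far fewer than the real data. The rates of recovery need not hold there. All readers are named. Of each other list, the 3 genes per direction with the lowest adjusted p are named, and all called genes where there are at most 5. Values of Mettl3, Mettl14, Hmga2, Cnot1 and NR_027375 were chosen after they were seen, and members and lists were chosen with earlier results of these data known. Protein sequences were not used, and 1 gene of the lists is not reported here.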

Additional observations from a re-analysis of the deposited data

How the results depend on the processing

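DESeq2, RLE size factors, no filter on low counts and a filter of 1 CPM in 3 libraries changed neither direction nor call of the 10 reader genes. Without scaling factors 1 reader gene was called higher and 1 lower, in place of 0 and 2, and of the genes in the 6 lists around them 19 were higher and 6 lower, in place of 6 and 13. Over all 11104 tested genes 3704 were then higher and 1272 lower, in place of 2087 and 2109. Ythdf1 (0.05), Ythdf2 (0.18), Ythdf3 (0.10), Igf2bp1 (0.10) and Igf2bp3 (0.14) then changed sign on the log2 scale. With H/R counts thinned to the middle control total, Ythdf3 was at 0.00. At an adjusted p under 0.01, 1 reader gene was lower, and the share of all tested genes at that threshold is not given here. At the thresholds of the study 0 were, beside 11.2% of all tested genes in either direction. DESeq2 called 1 lncRNA transcript at the reader loci, in place of 0, and its share over all transcripts is not given here.

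With 1 library left out, 1 to 2 reader genes were called lower and 0 higher, and of the genes in the lists 4 to 9 were higher and 8 to 15 lower, with the 8 found without H/R replicate 1. Over all 11038 to 11604 genes tested in these refits, 1571 to 2261 were higher and 1622 to 2313 lower. Log2 fold changes that changed sign ran from -0.62 to 0.45 for Ythdf3, -0.10 to 0.25 for Ythdc2, -0.22 to 0.06 for Igf2bp3 and -0.12 to 0.07 for Ythdf2, and none of these passed the threshold. The cause of these shifts was not tested.

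The correlations of deviations between H/R and control libraries of the same replicate number were 0.0399, -0.00385 and 0.0158. Those between libraries of unlike number ran from -0.0302 to 0.0132. All were close to 0, and with 3 libraries per group they cannot decide whether the libraries were paired. With the replicate block 2039 genes were higher and 1998 lower in all, no reader gene changed its call, and 7 genes of the 6 lists were higher and 11 lower. With the longest transcript as the length, the order of Ythdf1, Ythdf2 and Hnrnpa2b1 changed, and Igf2bp2 overlapped Hnrnpa2b1 in H/R libraries and Igf2bp1 overlapped Ythdc1 in control libraries. For Ythdf3, with 5 to 56 counts per library, and for the single circRNA, low counts limit what can be seen.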
